A study of Mus musculus with 50 samples.

Results

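The transcripts described here belong to 34 genes of fatty acid oxidation and of the response of peroxisome proliferator-activated receptors (PPARs) to fasting, chosen by symbol and all found among the 55401 gene rows of the table that carries symbols. They were measured by 3′ mRNA sequencing, which counts reads at the 3′ ends of polyadenylated transcripts, in male mice that carry hM3DGq, a designer receptor that excites the cells expressing it when its ligand clozapine N-oxide (CNO) is given. TG mice were positive for a Gfral-driven Cre recombinase and WT mice were Cre-negative, and both carried hM3DGq and were given CNO at 1 mg/kg. Every comparison is therefore of TG with WT under CNO, without a CNO-free group. The libraries were from quadriceps muscle of clamped mice (10 TG, 10 WT), from perigonadal white fat (pgWAT) taken 1 h after CNO (9 TG, 9 WT) and from pgWAT taken 6 h after CNO (6 TG, 6 WT). The sample titles give no time after CNO for the quadriceps libraries. Ages were not given in the sources at hand, nor was it stated that each library came from a separate mouse, so p-values cover the spread among these libraries alone. By the series description, glucose uptake on activation of the Gfral neurons was lowered in quadriceps and raised in pgWAT.

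Long-chain fatty acids enter cells with the help of CD36, are bound by fatty acid binding proteins, are activated to acyl-CoA and cross the inner mitochondrial membrane as carnitine esters. In the matrix a repeating spiral of dehydrogenation, hydration, oxidation and thiolysis shortens the chain, and the electron transfer flavoprotein passes its electrons to the respiratory chain. PPARα and PPARδ are nuclear receptors that bind fatty acids and switch on many of these genes in fasting, with PGC-1α and PGC-1β as co-activators; in white fat the related receptor PPARγ drives adipocyte genes.

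The total of gene counts in a library ran from 1118476 to 1277742 in TG and from 959980 to 2613672 in WT quadriceps, from 976610 to 4852560 in TG and from 1403136 to 2837114 in WT pgWAT at 1 h, and from 9150496 to 12883462 in TG and from 10267032 to 12110938 in WT pgWAT at 6 h. Levels are in CPM, counts scaled to library totals made comparable by TMM, and are compared between genotypes, not between genes. The limit that a count of 0 allows, 3 counts per library, was 1.15 to 3.13, 0.618 to 3.07 and 0.233 to 0.328 CPM in the 3 sets and covers counting error only. Skeletal muscle markers summed to 53710 to 62080 CPM in TG and 43130 to 73000 CPM in WT quadriceps. White adipocyte markers summed to 7174 to 11880 CPM in TG and 6601 to 11430 CPM in WT pgWAT at 1 h, and to 15790 to 20690 CPM in TG and 16520 to 17780 CPM in WT pgWAT at 6 h, with every marker of both lists detected. By a limit of 10 times the median of the set, some libraries stood apart. These were WT 2 and WT 10 of quadriceps (inducible heat shock transcripts), TG 3 and WT 7 of pgWAT at 1 h (liver transcripts), TG 4, TG 6 and WT 9 of the same set (Lrp2 and Cldn10 of duct epithelium, and cardiac muscle markers) and TG 2 of pgWAT at 6 h (liver transcripts). WT 2 of quadriceps was also high in liver transcripts, at 255 CPM against a median of 0.762 CPM for the set. TG 4 and TG 10 of quadriceps passed the limit in mesothelial markers, at sums of at most 1.83 CPM against a median of 0.171 CPM, and were kept in the fit that left out the libraries standing apart.

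In pgWAT at 6 h, TG mice had more transcript of the mitochondrial carrier gene Ucp2 and of Angptl4, a secreted inhibitor of lipoprotein lipase, and less of the carrier gene Ucp3 and of the co-activator genes Ppargc1a and Ppargc1b. The auxiliary enzyme gene Eci2 and the thiolase gene Acaa2 rose by smaller amounts. Most enzymes of the oxidation spiral lay close to equal in TG and WT. Of 32 genes tested, 4 rose and 3 fell at an adjusted p under 0.05 (quasi-likelihood test of edgeR, adjusted by Benjamini-Hochberg over all genes tested). The 7 are 21.9% of the 32, against 14.4% of all 14359 genes tested in that set, of which 6.88% rose and 7.54% fell. Of the 7, the Acaa2 call was lost in most fits that left out a single library, and the Ppargc1a call in some of them. An unadjusted p under 0.05 by edgeR was found for 9 of the 32 and for 3821 of all 14359 genes. The median log2 change of TG over WT was 0.04 for the 32 genes and 0.0016 for all genes tested. These are bulk tissues, in which fewer cells of a type and less RNA per cell cannot be told apart.

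In quadriceps 30 of the 34 were tested and 0 were called by edgeR, or by DESeq2, another count model, against 2.03% of 8070 genes (1.09% higher, 0.942% lower). The 2 with an unadjusted p under 0.05 by edgeR were Ucp2 and Ucp3, beside 942 of all 8070 genes. The median log2 change was 0.05 for the 30 genes and -0.0034 for all genes tested. In pgWAT at 1 h 30 were tested and 0 were called by edgeR or DESeq2, against 0.0722% of 11087 genes (0.0541% higher, 0.018% lower). There 0 of the 30 had an unadjusted p under 0.05 by edgeR, beside 512 of all 11087 genes. The genes with too few listed counts to test were Cpt1b, Ehhadh, Angptl4 and Acot1 in quadriceps, Cpt1b, Ehhadh, Fabp3 and Acot1 in pgWAT at 1 h, and Cpt1b and Fabp3 in pgWAT at 6 h. For Cpt1b, which another gene model covers, the listed counts are not read as a low level.

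**Figure D1:**
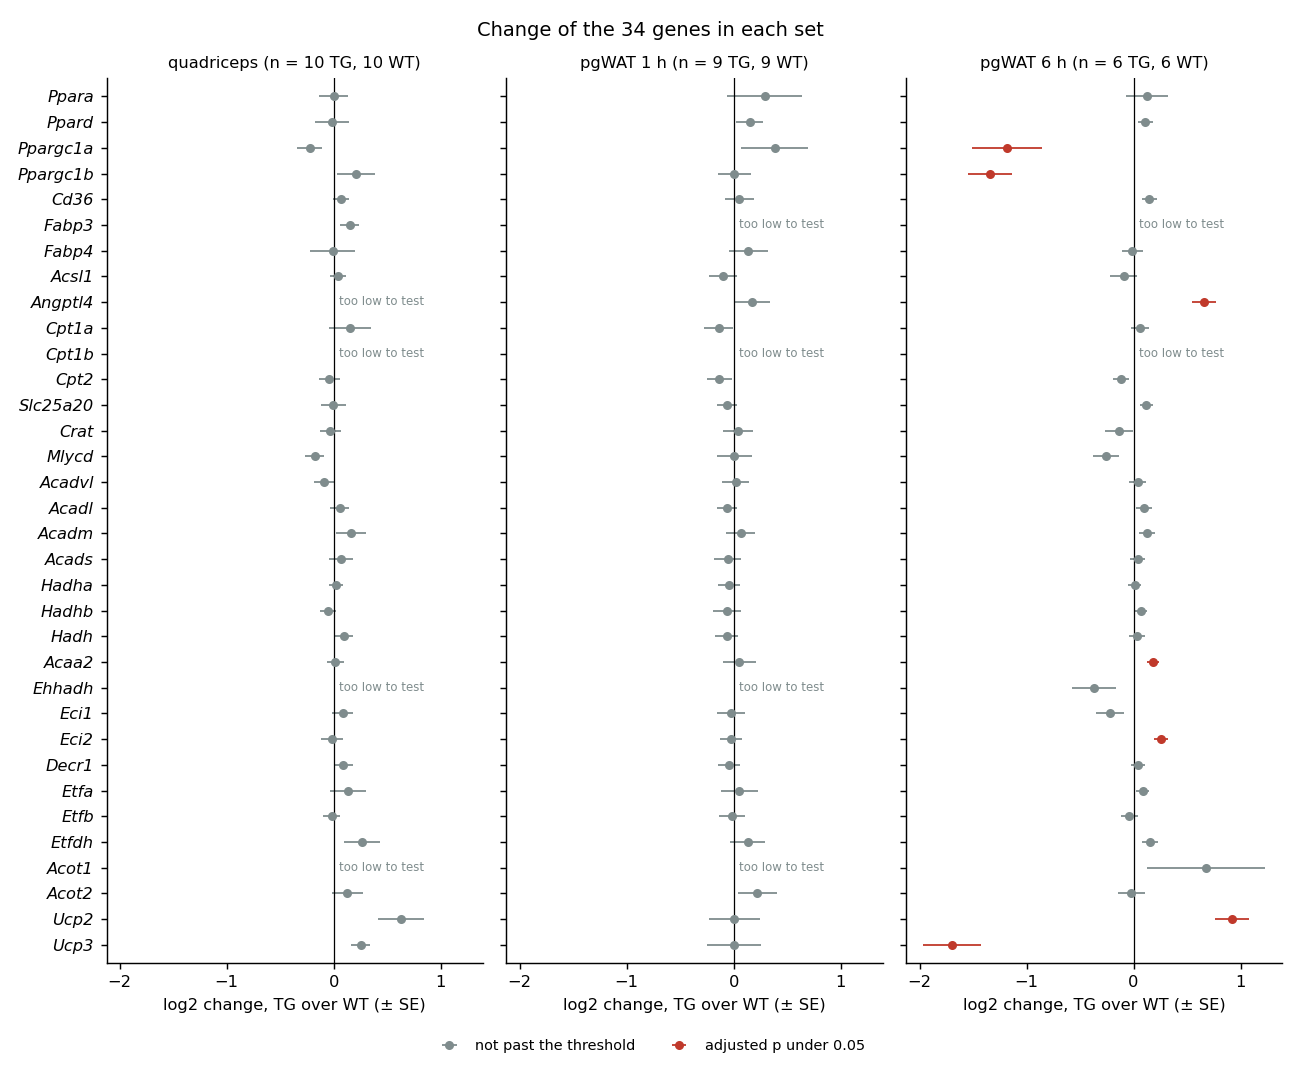
The plot gives the log2 change of TG over WT with its standard error for each of the 34 genes, ordered by role from receptors at the top to carriers at the bottom, in quadriceps, pgWAT 1 h and pgWAT 6 h. The red points, which have an adjusted p under 0.05, are the 7 genes called in pgWAT at 6 h. Genes with too few listed counts to test, marked as too low, have no point, and for Cpt1b this mark is not a statement of its level.

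Among the co-activators, Ppargc1b (ENSMUSG00000033871), which encodes PGC-1β, had the smallest p of the 34 genes at 6 h. Its lowest, median and highest levels were 5.49, 8.14 and 11.02 CPM in TG pgWAT, against 12.7, 20.3 and 28.1 CPM in WT pgWAT. Every TG library lay below every WT library, and the means were 8.28 ± 2.27 CPM in TG and 20.9 ± 5.61 CPM in WT (SD, n = 6 each), a log2 change of -1.34 (SE 0.20, adjusted p = 0.00033 by edgeR). The same transcript was at 12.1, 16.5 and 19.9 CPM in TG pgWAT at 1 h, against 11.3, 15.8 and 25.7 CPM in WT, with a log2 change of 0.01 (95% interval -0.32 to 0.33). In quadriceps it was at 8.60, 14.3 and 25.5 CPM in TG, against 5.86, 13.9 and 17.3 CPM in WT (0.21, 95% interval -0.15 to 0.57).

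Ppargc1a, which encodes PGC-1α, the co-activator known for mitochondrial biogenesis and for its rise in muscle with exercise and in brown fat with cold, also fell in pgWAT at 6 h. Its lowest, median and highest levels were 2.56, 3.53 and 5.33 CPM in TG, against 4.47, 7.03 and 15.3 CPM in WT, a log2 change of -1.18 (SE 0.33, adjusted p = 0.0238 by edgeR). All TG libraries were below the WT median, but the groups overlapped, since 3 of the 6 WT libraries lay at or under 5 CPM and the others spread upward. The call was lost without TG 1, TG 4, TG 5 or WT 6, with adjusted p-values up to 0.0552, and with no filter on low counts (adjusted p = 0.0539). At 1 h the levels were 7.15, 12.1 and 29.1 CPM in TG and 6.29, 9.54 and 21.5 CPM in WT, a log2 change of 0.38 (SE 0.31) that was -0.20 without the 5 libraries that stood apart. That fit left out TG 3, TG 4 and TG 6, all high in Ppargc1a, and WT 9. It kept WT 2, the WT library highest in Ppargc1a (21.5 CPM), with 119 CPM of duct epithelium transcripts. The -0.20 is therefore not a value free of such libraries. In quadriceps they were 122, 137 and 191 CPM in TG and 114, 161 and 235 CPM in WT, a log2 change of -0.23 (SE 0.12, adjusted p = 0.479).

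The receptors themselves did not pass in any of the 3 sets. Ppara, which encodes the fasting receptor of liver, was at 6.58, 8.38 and 12.1 CPM in TG pgWAT at 6 h and at 5.38, 7.99 and 10.9 CPM in WT (0.13, SE 0.20). Ppard, which encodes the receptor PPARδ, was at 25.4, 26.6 and 28.96 CPM in TG and at 24.3, 24.7 and 26.7 CPM in WT, with 6 of 6 TG libraries above the WT median (0.11, SE 0.07, adjusted p = 0.353). At 1 h the Ppara level of TG 3, the library with 9664 CPM of liver transcripts, was 49.4 CPM, and the other libraries ranged from 6.75 to 20.3 CPM in TG and from 6.55 to 22.2 CPM in WT. In quadriceps Ppara had a log2 change with a 95% interval of -0.28 to 0.28 and Ppard one of -0.34 to 0.30.

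The mitochondrial carriers Ucp2 and Ucp3, relatives of the brown fat uncoupling protein, lie one after the other on the plus strand of chromosome 7 (GRCm38, GENCODE vM21), Ucp3 at 100472990 to 100486432 and Ucp2 at 100493337 to 100502020. They moved in opposite directions in pgWAT at 6 h. Their promoters are shown as sequence alone, 250 bases before and 50 after the annotated start from RefSeq on GRCm38.p6, 5′ to 3′. Capitals mark matches to the PPAR direct repeat, a pair of AGGTCA copies with 1 base between them, allowing 2 mismatches, and to a single AGGTCA.
Ucp3, chr7:100472741-100473040, plus strand: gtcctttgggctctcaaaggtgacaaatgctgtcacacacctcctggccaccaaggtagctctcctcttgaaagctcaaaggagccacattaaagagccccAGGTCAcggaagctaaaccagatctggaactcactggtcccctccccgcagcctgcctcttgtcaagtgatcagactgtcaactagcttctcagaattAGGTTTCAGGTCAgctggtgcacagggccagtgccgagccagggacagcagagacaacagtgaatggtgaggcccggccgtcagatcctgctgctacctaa
Ucp2, chr7:100493108-100493407, plus strand: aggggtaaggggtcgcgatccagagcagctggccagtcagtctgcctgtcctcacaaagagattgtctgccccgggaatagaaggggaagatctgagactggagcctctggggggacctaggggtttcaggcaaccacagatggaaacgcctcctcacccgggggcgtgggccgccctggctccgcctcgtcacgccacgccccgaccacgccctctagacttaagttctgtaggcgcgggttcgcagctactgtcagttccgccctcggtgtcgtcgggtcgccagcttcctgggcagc
The Ucp3 window held a single AGGTCA 149 bases before the start and, 51 bases before it, the stretch AGGTTTCAGGTCA, a direct repeat match with 2 mismatches which ends in AGGTCA itself. The Ucp2 window held neither. Promoters were at hand for 27 of the 34 genes. With up to 2 mismatches on either strand the direct repeat was found in 4 of them, Cd36, Etfa, Slc25a20 and Ucp3, and in 3.86% of all 32851 promoters of the table. The single AGGTCA was found in 5, Acadm, Acadvl, Cd36, Cpt1a and Ucp3, and in 16.3% of all. The glucocorticoid receptor element, AGAACA and TGTTCT with 3 bases between them, with up to 2 mismatches was found in 0 of them and in 1.84% of all. A match is a description of letters in this window, and its part in any change was not tested.

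Ucp3, whose product is found mainly in muscle and brown fat, fell in TG pgWAT at 6 h. Its lowest, median and highest levels were 2.47, 4.38 and 8.61 CPM in TG, against 9.98, 14.7 and 25.3 CPM in WT, with no overlap. The means were 4.79 ± 2.10 CPM in TG and 15.6 ± 5.18 CPM in WT (SD, n = 6 each), a log2 change of -1.69 (SE 0.27, adjusted p = 0.000615 by edgeR). At 1 h the levels were 6.32, 12.2 and 26.3 CPM in TG, against 6.91, 12.3 and 26.9 CPM in WT, a log2 change of 0.01 (95% interval -0.51 to 0.52). The ranges of the genotypes nearly coincided at that time. In quadriceps, where the groups overlapped, Ucp3 was at 159, 188 and 284 CPM in TG and 133, 174 and 192 CPM in WT, a log2 change of 0.25 (SE 0.09) in the other direction that did not pass (adjusted p = 0.157 by edgeR), with 9 of 10 TG libraries above the WT median.

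Ucp2, which is expressed widely and strongly in immune cells, rose in TG pgWAT at 6 h. Its lowest, median and highest levels were 214, 232 and 347 CPM in TG, against 92.3, 125 and 174 CPM in WT, with no overlap, and the means were 247 ± 50.2 CPM in TG and 130 ± 29.5 CPM in WT (SD, n = 6 each). The log2 change was 0.92 (SE 0.16, adjusted p = 0.00153 by edgeR). The highest value came from TG 1, which also had the highest macrophage marker sum, and without this library the log2 change was 0.80 (adjusted p = 0.001). Macrophage markers summed to 1189, 1298 and 2161 CPM (lowest, median and highest) in TG and to 1098, 1385 and 1561 CPM in WT, and of 8 markers 5 lay above 0 and 3 below, with a median log2 change of 0.06. Cd163, a haemoglobin scavenger receptor, was the 1 called (0.80), while Adgre1 (-0.10) and Cd68 (-0.01) were among the 3 below 0 and did not pass. The part of these cells in the Ucp2 level was not tested beyond that fit. The gene Dnajb13 lies on the opposite strand at the 3′ end of Ucp2, and no source at hand gives the strand setting of the counting.

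The Ucp2 level in quadriceps was low, 11.2, 15.9 and 28.2 CPM in TG against 6.01, 7.69 and 18.7 CPM in WT. All 10 TG libraries lay above the WT median and the groups overlapped, because 3 WT libraries were above 15 CPM. The log2 change was 0.63 (SE 0.22), with an unadjusted p of 0.0059 and an adjusted p of 0.144. Leaving out WT 6 gave an adjusted p of 0.0495, and over the fits without single libraries it ranged from 0.0495 to 0.299. Macrophage markers in quadriceps summed to 167, 211 and 289 CPM in TG, where TG 2, the library highest in Ucp2, had the highest TG sum. In WT they summed to 174, 218 and 321 CPM, and the highest sum of the set was in WT 3, not in TG 2. In pgWAT at 1 h Ucp2 was at 20.1, 37.9 and 76.8 CPM in TG and at 20.3, 33.7 and 63.1 CPM in WT (0.01, 95% interval -0.49 to 0.50). Its highest value was in TG 9, which had the highest macrophage sum of that set (2283 CPM). The part of macrophages in the Ucp2 levels of these 2 sets was not tested.

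**Figure D2:**
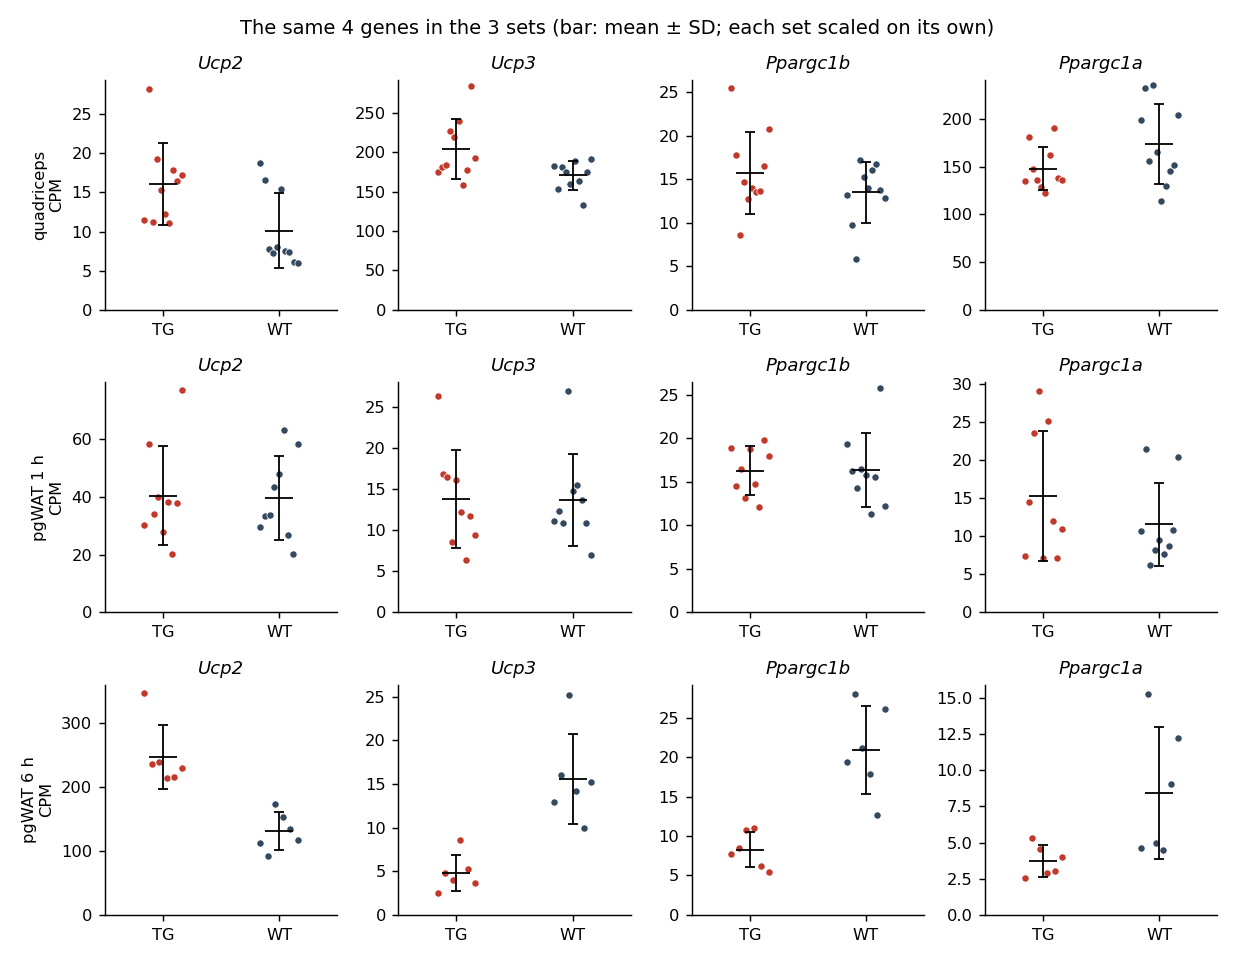
Each point is 1 library, with TG left and WT right, in quadriceps (top), pgWAT 1 h (middle) and pgWAT 6 h (bottom), in CPM on a linear axis from 0, and bars give the mean ± SD. At 6 h (n = 6 each) all TG libraries lie above all WT libraries for Ucp2 and below them for Ucp3 and Ppargc1b. The genotypes overlap for every one of the 4 genes in quadriceps (n = 10 each) and at 1 h (n = 9 each), where the groups are larger.

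Whether the genotype difference itself differed between sets was tested as an interaction in 1 edgeR fit per pair of sets. Between pgWAT at 6 h and at 1 h, 30 of the 34 genes were tested and 2 were called, against 5.14% of 11035 genes. These were Ppargc1b, with a difference of log2 changes of -1.34 (SE 0.25, adjusted p = 0.000709), and Ucp3, with -1.70 (SE 0.38, adjusted p = 0.00481). Ppargc1a (-1.56, SE 0.48, adjusted p = 0.0514), Ucp2 (0.92, SE 0.31, adjusted p = 0.0798), Angptl4 (0.48, adjusted p = 0.271) and Eci2 (0.28, adjusted p = 0.274) did not pass. The Ppargc1a difference joins a log2 change of -1.18 at 6 h with 0.38 at 1 h, and the latter changed sign without the libraries that stood apart. Between pgWAT at 6 h and quadriceps, 29 were tested and the same 2 were called, Ucp3 with -1.96 (SE 0.24, adjusted p = 6.15e-07) and Ppargc1b with -1.57 (SE 0.27, adjusted p = 5.82e-05), against 6.59% of 7784 genes. Both comparisons use the same 6 h libraries. Time, library kit and run cannot be told apart between the pgWAT sets. The same holds for tissue, clamp, time after CNO, kit and run between pgWAT at 6 h and quadriceps.

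Fatty acid uptake, binding and activation held 4 genes of the 34 and gave no call in any set. Cd36, the fatty acid translocase, was at 2054, 2099 and 2142 CPM in TG pgWAT at 6 h, against 1616, 1897 and 2138 CPM in WT (0.15, SE 0.07, adjusted p = 0.185). All 6 TG libraries were above the WT median, and the TG libraries were close together while the WT libraries spread over a wider range. Fabp4, the fatty acid binding protein of adipocytes, averaged 20990 ± 1950 CPM in TG and 21170 ± 2731 CPM in WT (SD, n = 6 each), a log2 change with a 95% interval of -0.22 to 0.19. Acsl1, the main acyl-CoA synthetase of fat, was at 798, 1043 and 1368 CPM in TG and at 905, 1119 and 1409 CPM in WT (-0.09, SE 0.13). Fabp3, the binding protein of heart and muscle, could be tested in quadriceps alone, at 583, 860 and 966 CPM in TG and 602, 745 and 938 CPM in WT (0.15, SE 0.09, adjusted p = 0.582). In quadriceps Cd36 had a log2 change of 0.07 (SE 0.08), Acsl1 of 0.04 (SE 0.08) and Fabp4 of -0.01 (SE 0.21). At 1 h they were 0.05 (SE 0.14), -0.10 (SE 0.13) and 0.14 (SE 0.18).

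Angptl4, a classical PPAR target that is also induced by glucocorticoids and that blocks lipoprotein lipase in fat during fasting, rose in TG pgWAT at 6 h. Its lowest, median and highest levels were 527, 610 and 675 CPM in TG, against 270, 394 and 456 CPM in WT, and the groups did not overlap. The means were 604 ± 64.2 CPM in TG and 382 ± 69.4 CPM in WT (SD, n = 6 each), a log2 change of 0.66 (SE 0.11, adjusted p = 0.000744 by edgeR). At 1 h it was at 134, 263 and 345 CPM in TG and 161, 206 and 342 CPM in WT, a log2 change of 0.18 (95% interval -0.16 to 0.51). In quadriceps it was too low to test, at 3.44, 5.85 and 13.6 CPM in TG against 3.15, 8.40 and 17.1 CPM in WT.

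The carnitine shuttle and its malonyl-CoA brake gave no call. Cpt1a, the outer membrane carnitine palmitoyltransferase of liver and many other tissues, was at 55.9, 61.4 and 70.3 CPM in TG pgWAT at 6 h and at 50.98, 60.2 and 71.6 CPM in WT (0.06, 95% interval -0.11 to 0.24). Cpt2, the inner membrane enzyme, changed by -0.12 (SE 0.08), the carrier gene Slc25a20 by 0.12 (SE 0.06, adjusted p = 0.246) and the carnitine acetyltransferase gene Crat by -0.14 (SE 0.13). Mlycd, which removes the CPT1 inhibitor malonyl-CoA, was at 25.3, 29.9 and 32.7 CPM in TG and at 28.1, 33.4 and 49.8 CPM in WT, with 0 of 6 TG libraries above the WT median (-0.26, SE 0.12, adjusted p = 0.199). Mlycd lay on the same side in quadriceps, at 87.0, 98.7 and 109 CPM in TG and 81.7, 114 and 134 CPM in WT (-0.18, SE 0.09, adjusted p = 0.439), with 0 of 10 TG libraries above the WT median, while at 1 h the 95% interval of its change was -0.33 to 0.34. In quadriceps Cpt1a was at 7.17, 12.5 and 23.8 CPM in TG and 6.60, 12.4 and 17.1 CPM in WT, and at 1 h at 51.1, 86.2 and 109 CPM in TG and 68.6, 99.8 and 119 CPM in WT (-0.14, SE 0.13).

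The muscle gene Cpt1b was listed with 0 counts in all quadriceps and all 1 h libraries and with 1 count, in a WT library, at 6 h. A further gene model of GENCODE vM21, Gm44502 (chromosome 15, 89416405 to 89429696, minus strand), covers the whole of Cpt1b (89416405 to 89425863) on the same strand, and it was listed with 0 counts in every table. The listed zeros are therefore given without a level.

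The 11 matrix enzymes and the 3 genes of the electron transfer flavoprotein and its oxidoreductase were all tested in each set. At 6 h 2 rose and 0 fell, 14.3% of them against 14.4% of all genes tested, 12 lay above 0 and 2 below, and the median log2 change was 0.05. The 95% intervals of all 14 lay between -0.50 and 0.40. In quadriceps 0 were called by edgeR, the median was 0.06 and the intervals lay between -0.28 and 0.61. At 1 h 0 were called, the median was -0.02 and the intervals lay between -0.33 and 0.48. None of the 14 had an unadjusted p under 0.05 by edgeR in these 2 sets, beside 942 of 8070 genes in quadriceps and 512 of 11087 at 1 h.

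Eci2, an enoyl-CoA isomerase that handles unsaturated fatty acids in mitochondria and peroxisomes, was at 86.6, 94.6 and 102 CPM in TG pgWAT at 6 h, against 68.9, 79.8 and 86.3 CPM in WT. The groups touched without overlap, and the log2 change was 0.26 (SE 0.07, adjusted p = 0.0169 by edgeR). Gm16984 lies on the opposite strand at its 3′ end. Its mitochondrial relative Eci1 was at 91.7, 145 and 152 CPM in TG and 137, 154 and 216 CPM in WT, with 0 of 6 TG libraries above the WT median, a log2 change of -0.22 (SE 0.13, adjusted p = 0.320). Decr1, the dienoyl-CoA reductase of the same auxiliary pathway, had a log2 change of 0.04 (SE 0.07).

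Acaa2, the medium-chain thiolase that cleaves the shortened chain, was at 177, 183 and 190 CPM in TG pgWAT at 6 h, against 149, 160 and 183 CPM in WT. Its log2 change was 0.18 (SE 0.06, adjusted p = 0.0448 by edgeR), with 6 of 6 TG libraries above the WT median and 1 WT library among them. The call held in 2 of 12 fits without a single library, those without TG 1 or WT 3, and the adjusted p reached 0.109 in the others. Those others include the fit without TG 2, the library that stood apart (adjusted p = 0.0791 by edgeR). The call was lost as well with no filter on low counts and with the replicate number as a block (adjusted p = 0.0595).

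The acyl-CoA dehydrogenases, which start each turn of the spiral and differ in chain length, gave no call at 6 h. Acadm, the medium-chain enzyme, was at 274, 293 and 304 CPM in TG and at 233, 255 and 322 CPM in WT (0.12, SE 0.07, adjusted p = 0.287), with 6 of 6 TG libraries above the WT median. Acadl, the long-chain enzyme, was at 281, 288 and 300 CPM in TG and at 234, 262 and 313 CPM in WT (0.09, SE 0.07), also with 6 of 6 above. The very-long-chain enzyme gene Acadvl and the short-chain enzyme gene Acads each had a log2 change of 0.04 (SE 0.08 and 0.07). In quadriceps the changes were -0.09 for Acadvl, 0.06 for Acadl, 0.16 for Acadm and 0.07 for Acads, and at 1 h they were 0.02, -0.06, 0.07 and -0.06. None of these passed by edgeR. For Acadm and Acadl at 6 h the TG libraries were close together, and their whole range lay within the wider WT range.

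The trifunctional protein subunit genes Hadha and Hadhb had log2 changes of 0.01 (SE 0.06) and 0.07 (SE 0.06) at 6 h, and the short-chain hydroxyacyl-CoA dehydrogenase gene Hadh one of 0.03 (SE 0.07). Etfdh, whose product passes electrons from the flavoprotein to ubiquinone, was at 44.99, 48.4 and 51.6 CPM in TG and at 37.7, 42.5 and 49.1 CPM in WT, with 6 of 6 TG libraries above the WT median (0.16, SE 0.07, adjusted p = 0.182 by edgeR). In quadriceps Etfdh lay on the same side, at 37.9, 58.1 and 70.2 CPM in TG and 18.9, 41.2 and 69.6 CPM in WT (0.26, SE 0.17, adjusted p = 0.612), with 9 of 10 TG libraries above the WT median. The flavoprotein subunit genes Etfa and Etfb had log2 changes of 0.09 (SE 0.06) and -0.04 (SE 0.08) at 6 h, and same-strand gene models overlap the 3′ end of Etfb. Slow muscle fibre markers, which mark oxidative fibres, summed to 68.6, 177 and 840 CPM (lowest, median and highest) in TG and 48.5, 153 and 460 CPM in WT quadriceps. Their part in the quadriceps values was not tested.

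Ehhadh, the peroxisomal bifunctional enzyme and a PPARα target in liver, could be tested at 6 h alone, at 4.39, 5.44 and 8.32 CPM in TG and 4.62, 8.50 and 9.36 CPM in WT. The change of -0.37 (SE 0.21, adjusted p = 0.282) did not pass, with 0 of 6 TG libraries above the WT median.

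**Figure D3:**
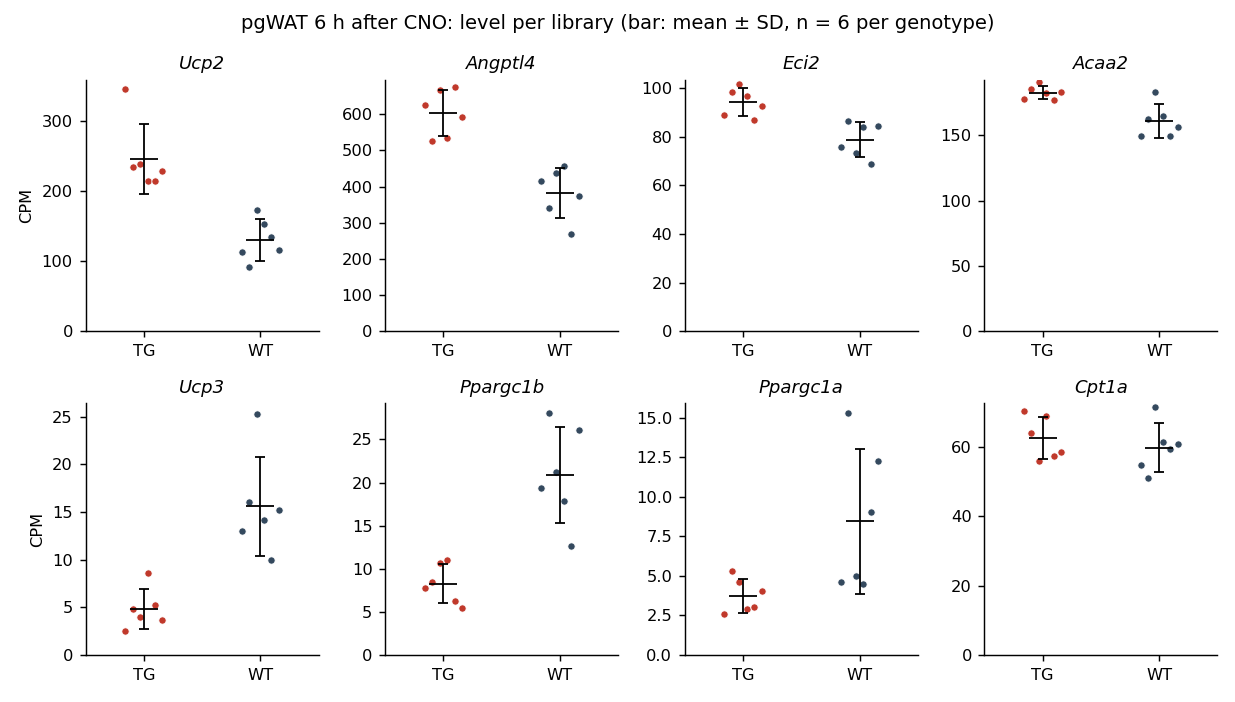
Levels in pgWAT at 6 h of the 7 genes called there and of Cpt1a, which was not, in CPM on a linear axis from 0, with TG left of WT, 1 point per library and bars for the mean ± SD (n = 6 each). Ucp2, Angptl4 and Eci2 in the top row are higher in every TG library than in every WT library, Acaa2 overlaps, and in the bottom row Ucp3 and Ppargc1b are lower in every TG library than in every WT library, while Ppargc1a and Cpt1a overlap.

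The acyl-CoA thioesterases Acot1 and Acot2 hydrolyse acyl-CoA in the cytosol and in mitochondria. Their GENCODE vM21 transcripts were 94.3% identical over 1330 aligned bases, but their last 300 bases aligned over only 32 bases, and the 3′ ends are what was counted. Acot2 was at 61.5, 76.6 and 86.6 CPM in TG pgWAT at 6 h and at 51.4, 78.5 and 99.4 CPM in WT (-0.02, SE 0.13). Acot1 was near the limit of detection there, at 0.431, 1.23 and 3.27 CPM in TG and 0.261, 0.525 and 2.26 CPM in WT (0.68, SE 0.55, adjusted p = 0.482). In quadriceps Acot2 was at 34.4, 53.8 and 60.5 CPM in TG and 28.4, 41.3 and 78.2 CPM in WT (0.13, SE 0.14), and Acot1 had 14 counts over the TG and 13 over the WT libraries.

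In pgWAT at 1 h Acot1 was high in 4 libraries. It had 39 counts in TG 4, 68 in TG 6, 49 in WT 9 and 23 in WT 2, and at most 5 in any other library. Fabp3 was highest in the same 4, with 10, 13, 31 and 8 counts in that order and at most 3 elsewhere. These are the libraries highest in the duct epithelium transcripts Lrp2 and Cldn10, which summed to 317 CPM in TG 4, 272 CPM in TG 6, 244 CPM in WT 9 and 119 CPM in WT 2, against at most 43.9 CPM in the others. Ppargc1a was at 29.1, 25.2, 20.4 and 21.5 CPM in those libraries, and 23.6 CPM in TG 3 was the only other value above 15 CPM. The part of other tissue in these values was not tested. The fit without TG 3, TG 4, TG 6, WT 7 and WT 9 called 0 of the 34 genes and 5 of all 11033 genes tested. It cannot decide the question, because 0 were also called with all libraries and because it kept WT 2.

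**Figure D4:**
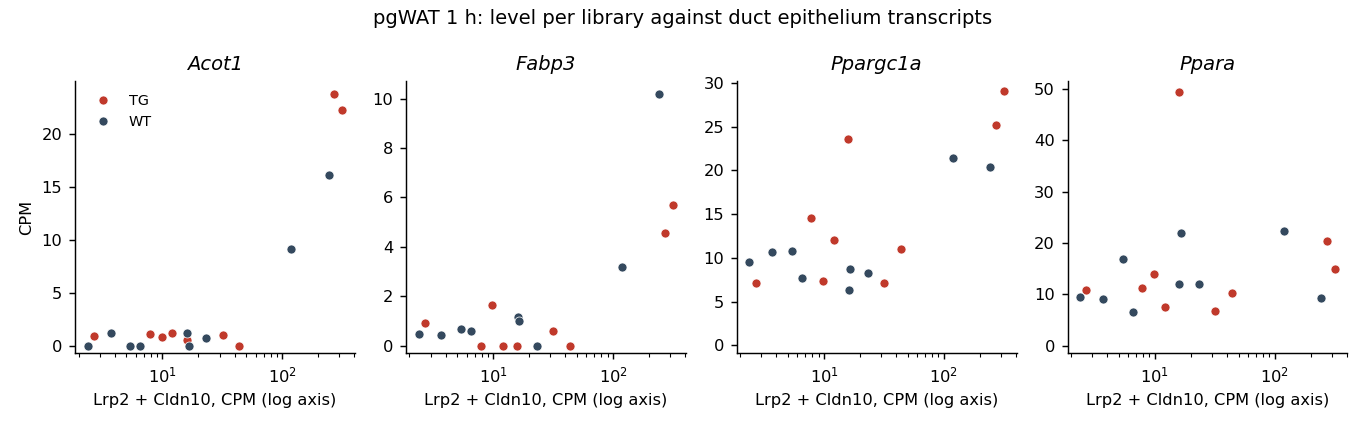
Levels of Acot1, Fabp3, Ppargc1a and Ppara in pgWAT at 1 h (CPM, linear axis) against the summed level of Lrp2 and Cldn10 (CPM, log axis), 1 point per library, TG and WT in different colours. Acot1 and Fabp3 are high in the same 4 libraries at the right, 2 TG and 2 WT, and the highest Ppara value, 49.4 CPM, is TG 3.

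The other genes of the pathway were taken from lists chosen with earlier results of these data known, and their counts at 6 h stand beside the 14.4% of all genes tested that were called in that set (6.88% higher, 7.54% lower). Of 20 genes tested at 6 h from a list of other mitochondrial fatty acid oxidation, 3 rose and 0 fell, with a median log2 change of 0.03. They were the mitochondrial acetyl-CoA synthetase gene Acss1 (0.94), the basic amino acid carrier gene Slc25a29 (1.05) and the thioesterase gene Acot9 (0.22). None of these 3 encodes an enzyme of the oxidation spiral, and the Acot9 call was lost in several fits. Of 17 genes of peroxisomal oxidation, 0 rose and 2 fell, the branched-chain acyl-CoA oxidase gene Acox3 (-0.32) and the peroxisome division gene Pex11a (-0.42). Of 11 genes of uptake, binding and activation 1 rose, Gpihbp1 (0.45), which anchors lipoprotein lipase to capillaries. Of 6 genes of ketone body metabolism 1 fell, the transporter gene Slc16a6 (-0.68, adjusted p = 0.0490), and of 12 genes of malonyl-CoA and AMPK control 1 rose, the AMPK subunit gene Prkab2 (0.71). Acacb, which makes malonyl-CoA at mitochondria, was at 29.2, 58.4 and 81.9 CPM in TG and 27.3, 34.4 and 76.5 CPM in WT (0.36, SE 0.33).

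Of 12 other PPAR targets tested at 6 h, 3 rose and 1 fell, again beside 14.4% of all genes called. Pdk4, the kinase that shuts off pyruvate dehydrogenase in fasting and a target of PPARs and of the glucocorticoid receptor, was at 79.5, 98.9 and 177 CPM in TG, against 12.97, 19.96 and 31.6 CPM in WT, with no overlap (2.50, SE 0.26, adjusted p = 7.13e-05 by edgeR). The lipid droplet protein gene Cidec rose by 0.38 and G0s2, an inhibitor of adipose triglyceride lipase, fell by 1.48 on the log2 scale. Plin2, a lipid droplet coat protein gene, did not pass at 276, 365 and 665 CPM in TG and 289, 325 and 422 CPM in WT (0.21, SE 0.21). Fkbp5, a glucocorticoid receptor co-chaperone gene that marks the 6 h response, averaged 432 ± 52.7 CPM in TG and 51.1 ± 12.3 CPM in WT (SD, n = 6 each).

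Of 22 PPAR partners and co-regulators tested at 6 h, 3 rose and 1 fell, beside the same 14.4%. Pparg, the receptor of adipocyte identity, was at 63.3, 87.0 and 105 CPM in TG, against 157, 171 and 189 CPM in WT, with no overlap (-1.01, SE 0.10, adjusted p = 2.09e-06 by edgeR). The co-activator gene Ncoa1 (0.48), Lpin1 (0.71), which encodes a phosphatidate phosphatase that also acts as a co-activator, and Cited2 (0.59) rose. The partner receptor gene Rxra (0.17, SE 0.08, adjusted p = 0.164) and Esrra (-0.08, SE 0.12), which encodes the nuclear receptor through which PGC-1 co-activators act on mitochondrial genes, did not pass. Of 8 white adipocyte markers at 6 h, Pparg and Cidec were the 2 called, in opposite directions. Brown adipocyte markers summed to 31.3, 37.8 and 49.0 CPM in TG and 26.5, 31.2 and 40.6 CPM in WT at 6 h, with 0 of 4 tested called by edgeR, and Ucp1 had 14 counts over the 12 libraries.

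**Figure D5:**
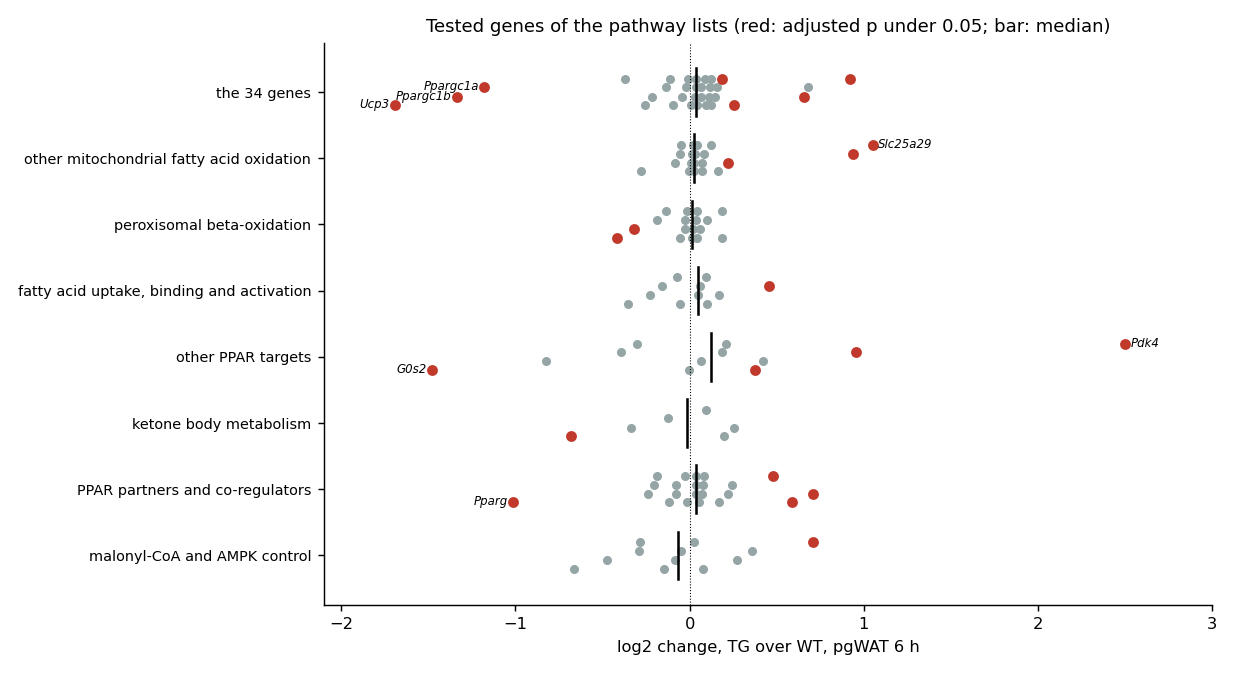
Log2 changes of TG over WT in pgWAT at 6 h for the tested genes of the 34 and of each further list, with red points at an adjusted p under 0.05 and black bars at the median. The medians of the further lists lie between -0.07 and 0.12, and the points far from it are few, with Pdk4 at 2.50 on the right and Ucp3 at -1.69 on the left.

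In quadriceps, where 2.03% of all genes were called, the further lists gave 1 call. Slc16a6 was at 11.2, 13.3 and 25.01 CPM in TG and at 5.15, 7.19 and 15.1 CPM in WT, with 10 of 10 TG libraries above the WT median (0.74, SE 0.20, adjusted p = 0.0452 by edgeR). This call was lost without TG 1, 2, 3, 6, 9 or 10 or WT 2, 3, 4, 5, 7, 8 or 10, with adjusted p-values up to 0.125, and without both WT 2 and WT 10 (adjusted p = 0.139). Its genotype difference was lower in pgWAT at 6 h than in quadriceps by 1.44 on the log2 scale (interaction adjusted p = 0.00144). Pdk4 was at 45.1, 108 and 238 CPM in TG and 43.8, 62.6 and 405 CPM in WT quadriceps (-0.05, SE 0.45), and its genotype difference was 2.53 higher in pgWAT at 6 h (interaction adjusted p = 0.00704). Plin2 was at 13.8, 29.8 and 44.9 CPM in TG and 17.9, 40.3 and 98.6 CPM in WT quadriceps, with 1 of 10 TG libraries above the WT median (-0.63, SE 0.25, adjusted p = 0.268). Rxra (-0.12), Esrra (0.08) and Acacb (-0.14) did not pass in quadriceps, where Pparg was too low to test. In pgWAT at 1 h 0 genes of the 7 further lists were called by edgeR, beside 0.0722% of all genes. At that time Pparg had a log2 change of 0.05 (SE 0.31), Plin2 of -0.05 (SE 0.15), and Rxra, Esrra and Acacb of 0.08, -0.08 and -0.01, and Pdk4 was too low to test.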

How the data were processed

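The authors deposited raw counts per gene, without normalization, in 3 tables, 1 per set, as the whole numbers and differing totals in the files show. Per the labels' protocols the libraries were QuantSeq 3′ FWD, with a UMI module for quadriceps and pgWAT at 1 h and without it at 6 h. STAR 2.7.10, cutadapt 1.18, UMI-tools 1.1.2 and bcl2fastq 2.20.0.422 were used, per the submitters' processing notes, which name GRCm39 and GRCm38. Not given in the sources used here were the build of each table, the counting program, how it used strand, and any collapsing of UMIs. Gene rows held 75.0%, 65.2% and 99.8% of the counts of the quadriceps, 1 h and 6 h tables, and the other rows were left out.

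Symbols came from the 6 h table, joined by gene identifier, and positions from GENCODE vM21 on GRCm38. Groups came from sample titles; for TG replicate 10 of quadriceps the treatment entry names 1 h and the title, which says clamped, was followed. Each set was fitted alone with edgeR 4.0.16 in R 4.3.3 (filterByExpr by genotype, TMM, robust quasi-likelihood fit), with Benjamini-Hochberg adjustment over all genes tested, a threshold of 0.05, and SE as the log2 change over the root of F. CPM used TMM-scaled library sizes. Interactions were fitted with set and genotype over 2 sets. No 2 libraries held identical values. The fitting code was tested on simulated data. The alternatives were DESeq2 1.42.0, RLE factors, no count filter, the replicate block, the library number's remainder on division by 8, single libraries and libraries that stood apart left out, and limma 3.58.1 voom for interactions.

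The 34 genes and all further lists were chosen with earlier results of these data known. All 34 were named, with up to 4 called genes per further list and set by smallest p, and Pdk4, Plin2, Pparg, Rxra, Esrra, Acacb and Fkbp5; some genes this rule takes in are not reported here. Promoters were RefSeq's, on GRCm38.p6; motifs were searched with Biopython 1.88, which also aligned the Acot transcripts.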

Additional observations from a re-analysis of the deposited data

Results flagged for a closer look

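Of 184 groups of values of the 34 genes, 22 (12.0%) held a library set off from the rest of its group by Dixon's criterion. Chance meets it in about 1 of 20 independent groups of normally distributed values. These groups share libraries and whether their CPM are normally distributed was not checked, so 12.0% is not read as an excess. In quadriceps these were Ucp2 in TG 2 (28.2 CPM, next 19.3), Cpt1a in TG 6 (23.8 CPM), Fabp4 in TG 1 (886 CPM), Acadl and Cd36 in WT 9 (690 and 439 CPM), Acaa2 in WT 6 (166 CPM), Decr1 in WT 3 (186 CPM), and Ppard and Crat in WT 1 (70.4 and 212 CPM), each as the highest of its group.

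In pgWAT at 1 h, TG 3 was highest in Hadha (162 CPM), Acaa2 (224 CPM) and Ppara (49.4 CPM) and is the library with 9664 CPM of liver transcripts, against a set median of 57.5 CPM. WT 9, with 244 CPM of Lrp2 and Cldn10, was lowest in Acadm (160 CPM, next 309) and Hadhb (74.1 CPM, next 116). The others were the highest values of Ucp3 in WT 4 (26.9 CPM), Crat in WT 6 (102 CPM) and Mlycd in WT 5 (56.8 CPM).

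In pgWAT at 6 h, TG 1 was highest in Ucp2 (347 CPM, next 239) and lowest in Eci1 (91.7 CPM, next 138) and Fabp4 (17060 CPM, next 21360). The same library had the highest macrophage marker sum (2161 CPM) and the lowest white adipocyte marker sum (15790 CPM) of the TG libraries. WT 2 was highest in Cpt2 (66.1 CPM) and Eci1 (216 CPM).

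The genotype difference differed between sets by the interaction test for Ppargc1b (-1.34 between pgWAT 6 h and 1 h, -1.57 between pgWAT 6 h and quadriceps) and for Ucp3 (-1.70 and -1.96).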

How the results depend on the processing

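The calls of Ucp2, Ucp3, Angptl4, Ppargc1b and Eci2 in pgWAT at 6 h held under all 5 alternatives and all 12 fits without a single library. The fit without TG 2 is counted in both, since TG 2 was the only library standing apart at 6 h. No 6 h value of the genes called there changed sign under any fit run. The call of Acaa2 was lost with no count filter, with the replicate block and without TG 2, and that of Ppargc1a with no count filter. The number of the 34 genes called higher in quadriceps was 0 with all libraries and 0 to 1 without single libraries. The 1 was Ucp2 without WT 6, a fit that called 198 of all 8090 genes tested. A pairing of the samples by replicate number was not seen, though the check cannot exclude one. Deviations of same-numbered libraries correlated at -0.18 to 0.20 in quadriceps, -0.18 to 0.37 at 1 h and -0.087 to 0.105 at 6 h. In that order, 1 of 10, 2 of 9 and 2 of 6 numbers correlated best with their own. With the replicate block 3 of the 32 genes tested were higher and 3 lower at 6 h, against 4 and 3 without it. Over all 14359 genes tested, 1874 were called with the block and 2071 without it. With the block Acaa2 had a log2 change of 0.19 (adjusted p = 0.0595 by edgeR). Of 17 calls in the further lists, 13 held under every fit. Besides Slc16a6 in quadriceps, Acot9 was lost with no filter, with the block and without TG 1, 4 or 6 or WT 1, 2, 3 or 6 (adjusted p up to 0.0952), Pex11a with no filter and without TG 1, 3, 4, 5 or 6 or WT 6 (up to 0.0646), and Slc16a6 at 6 h with no filter and without TG 2, 3, 4 or 6 or WT 1, 2, 5 or 6 (up to 0.128). The causes were not tested. The 4 interaction calls held under their 5 alternatives each. Fabp3, Acot1, Ehhadh and Angptl4 had too few counts to test in some sets, such as 11 for Ehhadh over all quadriceps libraries. Fabp3 had 43 counts over all libraries at 6 h, the set with the largest totals, and whether more depth would allow a test was not examined.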
